A study of Homo sapiens with 4 samples.

Results

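Depletion of hnRNPM in BM1 cells is described here from the BM1 pair of libraries, 2 of the 4 in the series. BM1 is a derivative of the triple-negative human breast cancer line MDA-MB-231 that the labels tie to bone metastasis. RNA came from 1 culture with a non-specific shRNA (the control library) and from 1 culture with an shRNA against hnRNPM (the knockdown library). In both, the hairpin came from a stably integrated lentiviral vector, and both cultures were grown in DMEM with serum, glutamine and antibiotics. The shRNA sequences, and whether each culture was a clone or a pool, are not stated by the labels. The other pair of libraries comes from LM2, a lung metastasis derivative of the parental line under the same treatments, and its values are set beside those of BM1 below.

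Levels are FPKM (fragments scaled to gene length and to library depth), so they can be compared between genes of unequal length. All genes with a mean of at least 1 FPKM over the BM1 pair were described, after the repeated gene IDs of 3 genes had been dropped. That left 13852 of 20329 genes. PLD4† (0.847 to 1.15 FPKM) and BCRP3† (1.38 to 0.626 FPKM) lay just inside this filter, and CTD-2330K9.2† (1.22 to 0.78 FPKM) and LINC00265 (0.706 to 1.29 FPKM) just outside. Each difference is knockdown minus control on the log2(FPKM + 1) scale, which understates the change of low genes. A gene was counted as higher or lower when this difference reached 1, that is 2-fold. With 1 library per arm there is no replicate error and no p-value, so every statement below compares 2 libraries. A dagger (†) after a symbol marks a gene whose span in the table overlaps another listed gene. Its value is uncertain, because the sources used here do not state whether the strand of these stranded libraries was used in quantification.

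hnRNPM is a nuclear RNA-binding protein of the heterogeneous nuclear ribonucleoprotein family that prefers GU-rich sequence in pre-mRNA and steers the choice of alternative exons. In breast cancer cells it is known for promoting mesenchymal splice forms, among them those of CD44, in competition with the epithelial splicing regulator ESRP1. Gene levels were deposited and analysed here. Splicing was not.

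HNRNPM† itself (gene ID ENSG00000099783.11, plus strand of chromosome 19 from 8509651 to 8553998, GRCh37) was measured at 171 FPKM in the control library and at 28.4 FPKM in the knockdown library. The knockdown level was 16.6% of control, a difference of -2.55. The library labelled as the knockdown was thus the one with less of the targeted transcript. Fewer cells with the transcript and less of it per cell cannot be told apart in RNA from a whole culture. ELAVL1†, whose listed span on the other strand reaches into the HNRNPM gene and which encodes the RNA-binding protein HuR, went from 35.3 to 24.9 FPKM (-0.49). Of the other genes named above, CD44† was at 155 and 157 FPKM and ESRP1, under the filter, at 0.288 and 0.0242 FPKM, control first. ESRP2†, not named above, was at 1.47 and 2.0 FPKM in the same order.

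The markers of the labelled cell type were present. Of 12 markers of mesenchymal-like (basal B) breast cancer lines, all were measured, and their summed level was 3890.2 FPKM in the control and 2710.2 FPKM in the knockdown. VIM† alone made up 2354 and 1159.8 FPKM of these sums, and 2 of the 12 were higher and 3 lower (1 and 0 with the trend removed). Of 10 hormone receptor and luminal markers 6 were in the table, at a summed 293 and 175 FPKM, most of it the keratin gene KRT19 (225 to 118 FPKM), and MUC1 was higher (0.207 to 1.99 FPKM). The receptor gene ERBB2† was at 21.9 and 17.8 FPKM, the luminal factor gene GATA3 was at 2.84 and 2.5 FPKM, and ESR1, PGR and FOXA1 were not analysed here. CXCR4, a chemokine receptor gene tied to bone metastasis, was at 24.7 FPKM in the BM1 control against 0.0698 FPKM in the LM2 control, and SPARC, a lung metastasis gene, at 2.13 against 248 FPKM. Markers of other cell types were few. The endothelial list had 3 of 7 markers in the table with a summed level of 1.55 and 0.791 FPKM in control and knockdown. The leukocyte list had 3 of 8, at 25.5 and 6.2 FPKM, nearly all of it CD68† (23.5 to 4.46 FPKM), with CD14 at 1.62 and 1.47 FPKM. The fibroblast and osteoblast list had 7 of 11, at 7.41 and 19.3 FPKM, led by COL1A1 (1.94 to 11.1 FPKM), while LUM stayed under 1 FPKM (0.0213 to 0.465 FPKM). The osteoclast list had 4 of 8, at 2.02 and 8.71 FPKM, led by CALCR (0.0433 to 7.51 FPKM), while CTSK (0.321 to 0.247 FPKM) and OSCAR (0.196 to 0.0639 FPKM) stayed near 0. The part of other cells in any result was not tested.

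Depth, read from the spacing of the lowest values, was about 31300000 fragments in the control and 22800000 in the knockdown library. This is inferred from the values, of which 44.9% and 43.5% lay within 0.02 of a whole fragment at that spacing. The spacing used was 2 times the finest one found in the control and 4 times in the knockdown. At the finest spacing 58.5% and 57.7% lay within 0.02 of a whole step, so neither the depths nor their order is settled. Genes of the mitochondrial genome took 9.31% of the FPKM sum in the control and 12.8% in the knockdown.

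Of the 13852 genes, 2302 (16.6%) differed by at least 2-fold. The knockdown library was higher for 1420 of them (10.3% of all genes) and lower for 882 (6.37%), and the median over all genes was 0.00. ABHD10 (8.17 to 17.3 FPKM) and NT5C2† (43.2 to 87.5 FPKM) lay just inside the 2-fold limit, and AC114494.1† (4.01 to 1.5 FPKM) and SCARB2 (12.6 to 26.2 FPKM) just outside. These shares are the background against which the counts of each gene group below are read. They were not even across gene classes. Protein-coding genes had 1238 higher and 711 lower of 11285, long non-coding RNAs 121 and 112 of 1528, and pseudogenes 29 and 23 of 708. As deposited, higher calls outnumbered lower calls among protein-coding genes, and the counts were close to each other among long non-coding RNAs. With the trend in GC content and length described below removed, protein-coding genes had 639 higher and 624 lower. Long non-coding RNAs then had 125 and 97, and pseudogenes 34 and 9. By level, 15.7% of genes at a mean of 1 to 5 FPKM were called either way, 19.2% at 5 to 20, 15% at 20 to 100 and 11.1% above 100 FPKM. The most abundant class leaned the other way from the whole, with 3.9% higher and 7.22% lower.

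**Figure D1:**
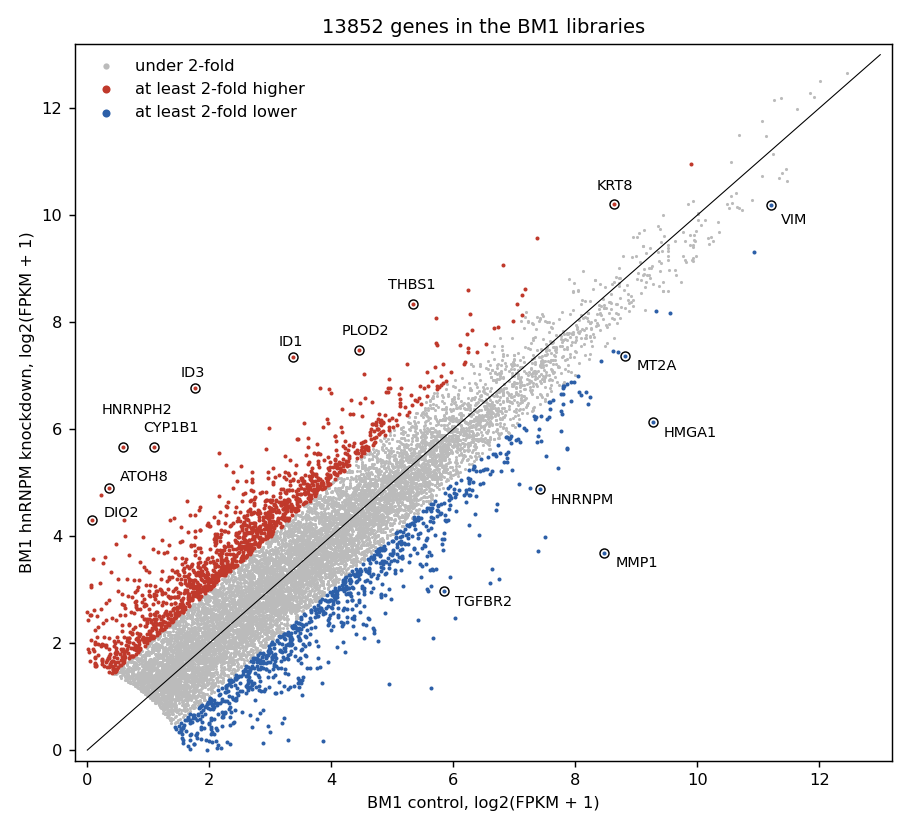
Level of 13852 genes in the BM1 control (horizontal) and BM1 hnRNPM knockdown library (vertical), both as log2(FPKM + 1), 1 point per gene, with genes at least 2-fold higher in red and at least 2-fold lower in blue. The line marks equal levels. HNRNPM, MMP1, HMGA1 and TGFBR2 lie below the line, and ID1, ID3, CYP1B1 and HNRNPH2 above it.

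Differences moved with the base composition and length of the transcripts, which bears on all counts below. In the quintile of genes with the lowest GC content of the longest transcript, 760 of 2728 genes (27.9%) were higher and the median difference was 0.60. In the quintile with the highest GC content, 3.63% were higher, 9.90% were lower and the median was -0.24. Among the longest quintile, 19.4% were higher (median 0.26), against 5.61% of the shortest quintile (median -0.17). Genes in both the lowest GC quintile and the longest quintile had 353 of 911 higher (38.7%, median 0.81), and the LM2 pair had a median of 0.15 for the same genes. Across 13639 genes, GC content and length together accounted for 20.5% of the variance of the BM1 differences and 2.79% of that of the LM2 differences, as a description with no test. Spearman's rho with GC content was -0.43 in BM1 and -0.19 in LM2. After this trend was subtracted, 1564 genes (11.5%) passed 2-fold, 817 higher (5.99%) and 747 lower (5.48%). Counts and medians with the trend removed are given beside the main ones below for most lists in which they differ, and the part of GC content and length in each result was not tested.

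**Figure D2:**
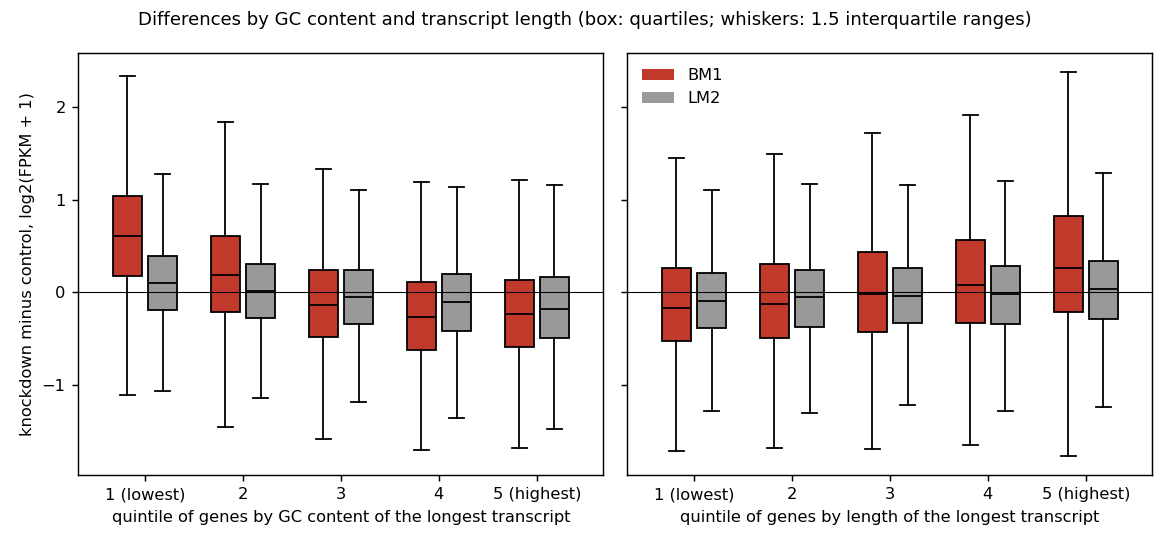
Difference between knockdown and control, log2(FPKM + 1), for quintiles of genes by GC content (left) and by length (right) of the longest transcript, in BM1 (red) and LM2 (grey). Boxes give quartiles with the median line, and whiskers reach 1.5 interquartile ranges. The BM1 medians fall from 0.60 in the lowest GC quintile to -0.24 in the highest.

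Targets of bone morphogenetic protein (BMP) signalling were higher in the knockdown library. In this pathway receptors phosphorylate SMAD1 and SMAD5, and these switch on the ID genes. The ID proteins are helix-loop-helix proteins without a DNA-binding region that hold other such factors off DNA. ID3 (chromosome 1, 23884409 to 23886285, minus strand) was at 2.39 FPKM in the control and 108 FPKM in the knockdown library, a difference of 5.01. ID1 went from 9.37 to 162 FPKM (3.97), ID4 from 0.606 to 11.5 FPKM (2.96) and ID2 from 0.0753 to 5.16 FPKM (2.52). All 4 ID genes were thus higher in the knockdown library, and ID1 and ID3 reached over 100 FPKM. ATOH8, a basic helix-loop-helix factor and BMP target, went from 0.273 to 28.8 FPKM (4.55). The feedback inhibitors of the pathway moved less. SMAD7, an inhibitory SMAD, went from 0.942 to 7.53 FPKM (2.13), BAMBI, a decoy receptor, from 2.95 to 7.88 FPKM (1.17) and SMAD6 from 3.36 to 5.69 FPKM (0.62), under the limit. Of the 8 listed targets, 7 were at least 2-fold higher, with a median of 2.74, against 10.3% of all genes.

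Upstream of these targets the differences were smaller. Among BMP ligands, BMP4 went from 39.1 to 86.4 FPKM (1.12), BMP2 from 0.293 to 2.0 FPKM (1.21) and GDF15, a distant member of the family, from 3.26 to 14.8 FPKM (1.89). No receptor passed the limit in either direction: BMPR1A was at 2.79 and 4.94 FPKM, BMPR2 at 2.33 and 3.7, and ACVR1 at 4.52 and 1.84 (-0.96). The transducers SMAD1† (2.38 to 3.36 FPKM) and SMAD5† (7.66 to 16.1 FPKM) differed by 0.37 and 0.98. Of the extracellular antagonists, FST (follistatin), which traps activins and some BMPs, went from 51.6 to 269 FPKM (2.36), whereas NOG (noggin) was at 12.5 and 11.2 FPKM. Over the whole list, 11 of 26 measured members were higher and 0 lower, with a median of 0.74 (0.82 with the trend removed). In LM2 the same members had a median of 0.25, and 5 of the 8 targets were at least 2-fold higher, with a median of 1.26. There ATOH8 was at 1.02 and 8.38 FPKM, ID2 at 0.592 and 3.47 FPKM, ID3 at 12.9 and 61.6 FPKM, ID1 at 35 and 64.8 FPKM and ID4 at 0.624 and 1.02 FPKM. ID3 was chosen as a marker of this comparison with its values known, so its size is no independent sign for the group. The other targets and the list itself were also chosen with earlier results of these data known. Their counts and medians, which include ID3, are therefore a description and no independent sign either.

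**Figure D3:**
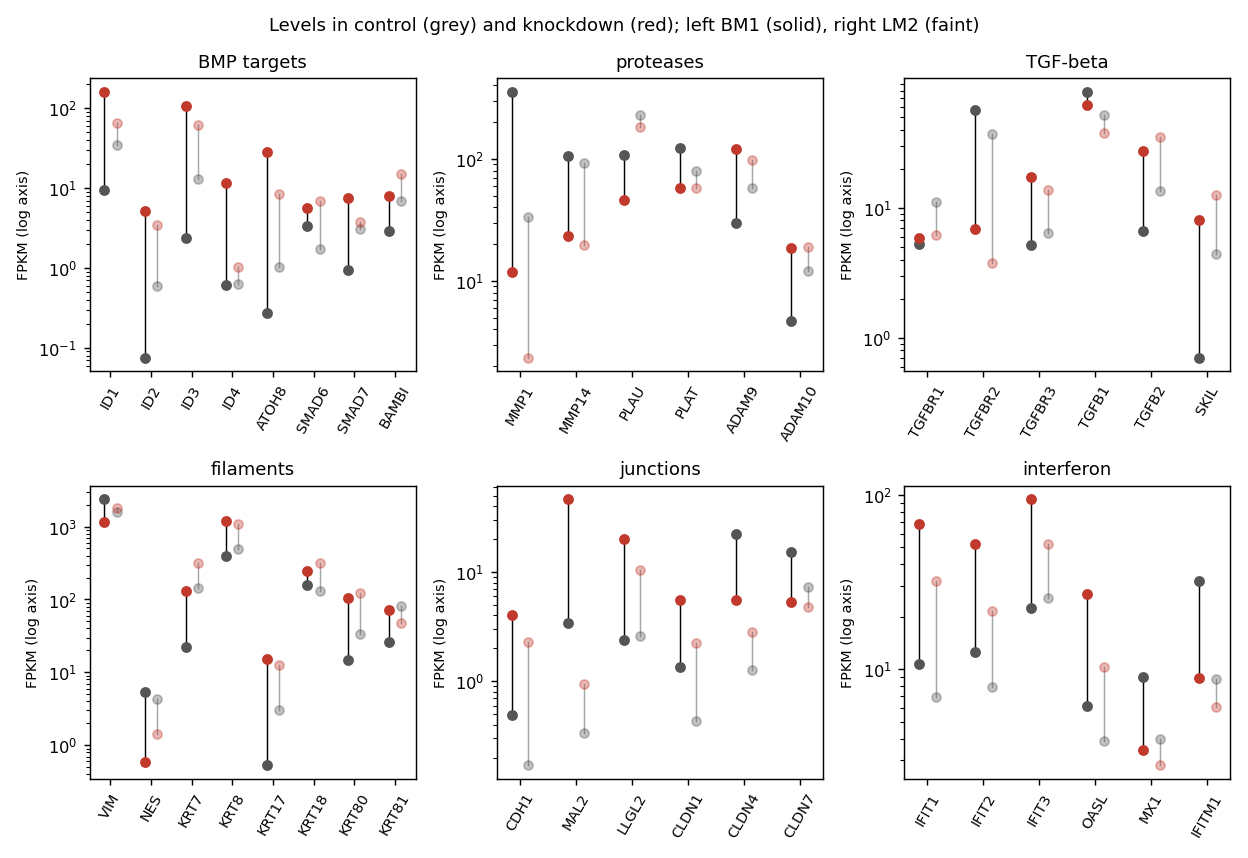
Level in FPKM (log axis) of named genes in 6 groups, with the control in grey and the knockdown in red, the BM1 pair in solid colour at the left of each gene and the LM2 pair faint at its right, 1 library per point. In BM1 the ID genes and ATOH8 are higher in the knockdown, and MMP1, TGFBR2, NES and IFITM1 are lower.

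In the sister pathway of transforming growth factor beta (TGF-beta), ligand binding to the type II receptor recruits the type I receptor, which activates SMAD2 and SMAD3. The type II receptor gene TGFBR2 (chromosome 3, 30647994 to 30735634, plus strand) was among the largest decreases, at 56.4 FPKM in the control and 6.84 FPKM in the knockdown library (-2.87), and at 37.2 and 3.76 FPKM in LM2. The type I receptor gene TGFBR1 was at 5.29 and 5.9 FPKM. The co-receptors went in opposite directions, betaglycan (TGFBR3) from 5.19 to 17.2 FPKM (1.56) and endoglin (ENG†) from 8.52 to 3.53 FPKM (-1.07). Among ligands and their latency proteins, TGFB2† (6.64 to 27.3 FPKM), INHBA (1.19 to 3.81 FPKM) and LTBP1 (12 to 30.1 FPKM) were at least 2-fold higher, while TGFB1† was at 78.4 and 61.5 FPKM. SMAD2 went from 9.76 to 24.9 FPKM (1.27, 0.20 with the trend removed), and SMAD3 differed by -0.10 and SMAD4† by 0.01. The corepressor gene SKIL went from 0.702 to 8.05 FPKM (2.41). Known targets split. CTGF† (231 to 114 FPKM, -1.0) was lower, and TGFBI (3.25 to 13.3 FPKM) and COL1A1 (1.94 to 11.1 FPKM) were higher. In all, 8 of 26 members were higher and 4 lower, and the median was -0.04. With the trend removed 7 were higher and 1 lower, and ENG (-0.81) and CTGF (-0.81) no longer passed.

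Of 15 feedback genes of the EGF receptor and ERK kinase cascade, 7 were lower in the knockdown library. ERK activity induces these genes, and many of them encode brakes on the cascade. The ERK phosphatase DUSP6† was at 93.2 FPKM in the control and 37.3 FPKM in the knockdown library (-1.30), and its nuclear counterpart DUSP5 went from 57.6 to 18.5 FPKM (-1.59). The ETS factors ETV4† (42.9 to 15.6 FPKM) and ETV5† (46.3 to 14.6 FPKM), the Sprouty genes SPRY1 (19.98 to 8.65 FPKM) and SPRY4† (34 to 14.8 FPKM) and PHLDA1† (145 to 62.6 FPKM) were also lower, and DUSP4 was just under the limit (128 to 64.7 FPKM, -0.98). The exceptions were DUSP1 (24.7 to 67.4 FPKM) and DUSP10 (3.29 to 10.2 FPKM), phosphatases better known for acting on stress kinases, which were higher. The 15 feedback genes had a median of -0.98, and 6.37% of all genes were lower. The ligands EREG (1.24 to 12.1 FPKM) and AREG (4.57 to 14.9 FPKM) were higher, HBEGF was at 26.5 and 18.9 FPKM, and the receptors EGFR† (51 to 80.6 FPKM), ERBB2† (21.9 to 17.8 FPKM) and ERBB3 (3.55 to 3.69 FPKM) were under the limit.

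Immediate-early and AP-1 factors did not move as 1 block. JUN went from 44.1 to 12.7 FPKM (-1.71) and JUNB† from 19.6 to 8.79 FPKM (-1.07), whereas JUND went from 5.1 to 31.7 FPKM (2.42). MYC, which encodes a growth-promoting transcription factor, was at 2.6 FPKM in the control and 22.2 FPKM in the knockdown library (2.69), and its antagonist MXI1 went from 10.3 to 4.12 FPKM (-1.14). In LM2, MYC was at 1.53 and 18.8 FPKM. KLF4 was higher (6.93 to 20.9 FPKM) and IER3† lower (252 to 117 FPKM). The list had 4 higher and 5 lower of 24 (4 and 3 with the trend removed), with a median of -0.39. In the NF-kB list, 2 of 14 were higher and 1 lower, namely BIRC3 (2.06 to 10.9 FPKM), BIRC2 (10.8 to 23.6 FPKM) and NFKB1 (15.6 to 6.1 FPKM), in that order, and 1 was higher and 1 lower with the trend removed. Wnt genes had 4 higher and 1 lower of 25, with the co-receptor LRP6 (5.38 to 18 FPKM) and the receptor ROR1 (5.6 to 17.1 FPKM) among the higher ones and FZD8† (4.12 to 1.41 FPKM) lower. With the trend removed 3 Wnt genes were higher and 0 lower, so FZD8 no longer passed, and higher receptors went from 2 to 1. In LM2 1 Wnt gene was higher and 3 were lower. Of 7 Notch genes, NOTCH1 alone passed the limit (2.94 to 0.863 FPKM, -1.08), and it did not with the trend removed (-0.83), where the list's median went from -0.20 to 0.03.

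MMP1, the interstitial collagenase and a gene long tied to bone metastasis of this line, showed the largest decrease of all protein-coding genes. MMP1 (chromosome 11, 102660651 to 102668891, minus strand) was at 355 FPKM in the control and 11.9 FPKM in the knockdown library, 3.34% of control (-4.79). In LM2 it was at 33.3 and 2.34 FPKM. MMP14, the membrane-bound metalloproteinase that activates others at the cell surface, went from 105 to 23.4 FPKM (-2.12), and ADAM15 from 57.5 to 20.01 FPKM (-1.48) and ADAM8 from 19.3 to 9.13 FPKM (-1.01). Other ADAM genes went the other way, ADAM9 from 29.9 to 122 FPKM (1.99) and ADAM10 from 4.69 to 18.5 FPKM (1.78). Of 9 ADAM and ADAMTS genes 3 were higher and 2 lower. None of the tissue inhibitors passed the limit: TIMP1† was at 134 and 81.3 FPKM, TIMP2† at 59.8 and 46.2, and TIMP3† at 186 and 98.4. The list thus had 4 higher and 4 lower of 20. In the plasminogen system, urokinase (PLAU†, 108 to 45.9 FPKM) and tissue plasminogen activator (PLAT, 122 to 57.6 FPKM) were lower, in a list with 3 lower and 1 higher of 15. With the trend removed 1 was lower and 1 higher, and PLAU (-0.97) no longer passed. The urokinase receptor gene PLAUR was at 61.1 and 34.2 FPKM (-0.82). The plasminogen list's median of -0.28 turned to 0.03 when genes that overlap others were left out.

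Filament genes showed opposite differences by class. Vimentin is the intermediate filament of mesenchymal cells, and keratins are those of epithelia. VIM† (chromosome 10, 17270258 to 17279592, plus strand) was at 2354 FPKM in the control and 1159.8 FPKM in the knockdown library (-1.02, just past the limit, and -1.0, just under it, with the trend removed). In LM2 it was at 1575 and 1795 FPKM. NES (nestin) went from 5.36 to 0.584 FPKM (-2.01). Keratin genes were mostly higher. KRT8† went from 398 to 1181 FPKM (1.57), KRT7† from 22.3 to 129 FPKM (2.48), KRT80 from 14.6 to 106 FPKM (2.78) and the basal keratin gene KRT17 from 0.53 to 15 FPKM (3.39). The partner of KRT8 in the filaments of simple epithelia, KRT18†, was at 158 and 248 FPKM (0.65), while KRT19 was lower but under the limit (225 to 118 FPKM, -0.93). The list had 6 higher and 2 lower of 14, with a median of 0.48 (6, 1 and 0.76 with the trend removed). Many keratin genes overlap in the table, and the median was -0.45 when overlapping genes were left out.

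Genes of epithelial junctions had 10 higher and 2 lower of 26, or 8 and 2 with the trend removed. Their median was 0.61 (0.42 with the trend removed, 0.59 in LM2). CDH1, which encodes E-cadherin, was at 0.489 FPKM in the control and 4.08 FPKM in the knockdown library (1.77), a low level in both. LLGL2, a basolateral polarity gene, went from 2.39 to 20.1 FPKM (2.64), and MAL2†, which serves transport to the apical membrane, from 3.44 to 46.1 FPKM (3.41). Of 8 desmosome genes 4 were higher, PKP2† (16.6 to 37.7 FPKM), PPL (3.0 to 7.38 FPKM), DSG2† (12.3 to 26.3 FPKM) and DSC2 (0.394 to 1.85 FPKM). With the trend removed 2 of the 8 were higher. Tight junction genes were split, with CLDN1 (1.34 to 5.52 FPKM) and cingulin (CGN) higher and CLDN4 (22.2 to 5.48 FPKM) and CLDN7† (15.1 to 5.31 FPKM) lower. Mesenchymal markers had 3 higher and 1 lower of 15 (4 and 0 with the trend removed, and 4 and 0 in LM2). COL1A1 (1.94 to 11.1 FPKM), TGFBI (3.25 to 13.3 FPKM) and TAGLN† (2.16 to 6.23 FPKM) were higher and VIM† lower (2354 to 1159.8 FPKM). FN1 (fibronectin) was at 24.4 and 38.7 FPKM, and the list's median of -0.29 became -0.07 with the trend removed and 0.34 without overlapping genes. Among the transcription factors of the epithelial-mesenchymal transition, 0 of 9 were higher and 2 lower (1 and 3 with the trend removed). SOX9† (18.6 to 7.16 FPKM, -1.26) was among the lower ones as deposited. ZEB1† (4.05 to 7.05 FPKM) and SNAI2 (6.71 to 5.49 FPKM) were under the limit, and SNAI1 was below the filter (0.303 to 0.312 FPKM).

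**Figure D4:**
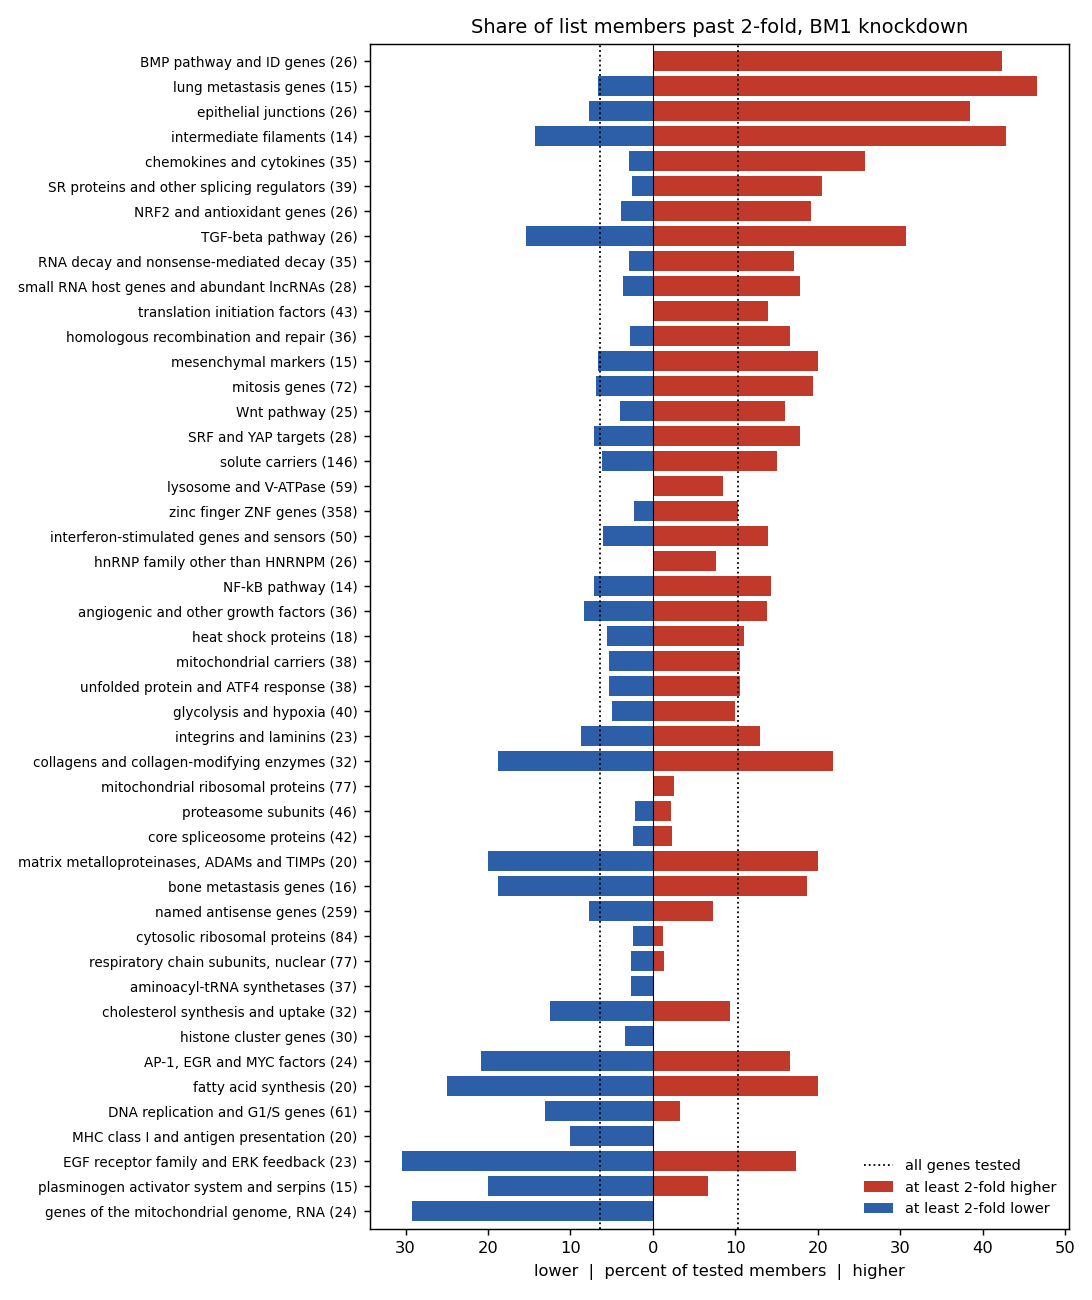
Share of the tested members of gene lists with at least 14 such members that were at least 2-fold higher (red, to the right) or lower (blue, to the left) in the BM1 knockdown, with the number tested in brackets. The list of cell cycle arrest and cell death genes is left out. Dotted lines mark the shares over all 13852 genes, 10.3% higher and 6.37% lower. BMP, lung metastasis, filament and junction genes reach furthest to the right, and EGF receptor and ERK feedback genes furthest to the left.

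Genes published as markers of bone metastasis in this cell family come in part from work on BM1 itself, so they are no independent gauge of it. Of the 8 signature genes measured, 3 were lower and 1 higher. MMP1 (355 to 11.9 FPKM), CXCR4 (24.7 to 10.8 FPKM, -1.12) and CTGF† (231 to 114 FPKM, -1.0) were the lower ones and FST (51.6 to 269 FPKM) the higher one. IL11, an osteoclast-promoting cytokine, was at 108 and 65.6 FPKM (-0.71), and ADAMTS1 at 30.8 and 55.3 (0.83). Among signals to bone cells, TNFRSF11B, which encodes the osteoclast inhibitor osteoprotegerin, went from 1.94 to 14.1 FPKM (2.36) and IL6† from 3.28 to 13.9 FPKM (1.80). DKK1, an inhibitor of Wnt signalling and bone formation, was at 174 and 285 FPKM, and CSF1, an osteoclast growth factor, at 28.2 and 50.8 FPKM, neither past the limit. Of 15 lung metastasis genes 7 were higher and 1 lower, with a median of 0.59 (0.82 with the trend removed). The higher ones included EREG (1.24 to 12.1 FPKM), ANGPTL4† (1.32 to 8.2 FPKM), MAN1A1 (1.16 to 7.43 FPKM) and ID1 (9.37 to 162 FPKM). The lower one was CXCR4, which stands in both lists.

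Cytokine genes were more often higher than lower, 9 against 1 of 35. These were 25.7% and 2.86% of the list, beside 10.3% and 6.37% of all genes. As deposited, 5 of the 9 were receptors. The shared signalling receptor of the interleukin 6 family, IL6ST†, went from 12.1 to 46 FPKM (1.84), and its partners LIFR† (3.49 to 14.8 FPKM) and OSMR† (19.5 to 50.5 FPKM) were higher too. IL7R went from 10.02 to 55 FPKM (2.34) and IL1R1 from 1.04 to 3.67 FPKM (1.19). Of secreted cytokines, IL6† (3.28 to 13.9 FPKM), IL18 (15.7 to 42.3 FPKM) and the death ligand TNFSF10 (0.695 to 4.91 FPKM) were higher. Of 6 measured chemokines, CCL26 alone was higher (3.14 to 8.56 FPKM). CCL2 was at 86.3 and 92 FPKM and CXCL8 at 6.45 and 11.2. With the GC and length trend removed, the list's median went from 0.35 to 0.09, with 8 higher and 1 lower. Higher receptors then went from 5 to 2, secreted cytokines from 3 to 4 and chemokines from 1 to 2. IL6ST and LIFR were among those no longer past the limit (0.95 and 0.85).

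Of 50 interferon-stimulated genes, factors and sensors, 7 were higher (14%) and 3 lower (6%) in the knockdown library. Over all genes the shares were 10.3% and 6.37%, so the list as a whole lay near the background. Interferons act through a complex of transcription factors that includes IRF9 and binds a purine-rich element in the promoters of these genes, and double-stranded RNA can also induce several of them through IRF3. The IFIT genes lie in a cluster on chromosome 10 and encode proteins that bind foreign RNA. The promoters of IFIT1† and IFIT3† are shown because these genes led the group. The windows run from 250 bases before to 50 after the start site (RefSeq, GRCh38.p14), chr10:89392373-89392672 for IFIT1 and chr10:89327747-89328046 for IFIT3, both on the plus strand. Capitals mark matches to the core of that element, GAAA repeated after any 2 bases, which both promoters hold on the minus strand and therefore show as TTTC repeats. Each window holds 2 matches.

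IFIT1 and IFIT3 promoter windows, 5′ to 3′:
IFIT1: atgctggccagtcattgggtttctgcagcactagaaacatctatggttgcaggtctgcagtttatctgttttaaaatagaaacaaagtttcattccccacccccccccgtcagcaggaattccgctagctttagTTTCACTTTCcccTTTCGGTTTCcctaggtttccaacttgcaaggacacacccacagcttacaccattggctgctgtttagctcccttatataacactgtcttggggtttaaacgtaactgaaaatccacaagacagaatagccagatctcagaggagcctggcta
IFIT3: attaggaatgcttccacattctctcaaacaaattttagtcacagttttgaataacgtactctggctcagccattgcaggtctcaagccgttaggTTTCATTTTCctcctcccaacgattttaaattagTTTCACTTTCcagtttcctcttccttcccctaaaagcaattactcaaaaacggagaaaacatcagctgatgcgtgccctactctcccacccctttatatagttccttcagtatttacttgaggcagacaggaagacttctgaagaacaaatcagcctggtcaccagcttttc

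The element was found on either strand in 3.65% of 27305 promoters of this length and in 24 of 41 promoters of the interferon list (58.5%), which describes the list and not the knockdown. IFIT1† was at 10.7 FPKM in the control and 68.6 FPKM in the knockdown library (2.57), IFIT3† went from 22.5 to 94.3 FPKM (2.02), IFIT2† from 12.6 to 52.1 FPKM (1.97) and OASL, an antiviral oligoadenylate synthetase-like gene, from 6.14 to 27.1 FPKM (1.98). SAMD9 (1.57 to 6.19 FPKM) and SAMD9L (0.68 to 3.8 FPKM) were higher too. The IFIT genes overlap the span of LIPA† on the other strand, which went the other way, from 48.9 to 26.7 FPKM (-0.85). Other interferon-induced genes were lower, IFITM1† from 32 to 8.97 FPKM (-1.73), MX1 from 9.06 to 3.45 FPKM (-1.18) and OAS3 from 12.3 to 5.12 FPKM (-1.12). MX1, OAS3 and IFITM1 hold the same element in their windows, so genes with it were found in both directions. Of list members with the element, 4 of 21 were higher (median 0.55), and of those without it 1 of 13 (median 0.31). The whole list had a median of 0.28, and 5 were higher and 1 lower with the trend removed. Of the factors and sensors, IFIH1 (1.05 to 3.6 FPKM) was higher, and IRF9† (12.2 to 5.9 FPKM), IRF1† (15.1 to 8.82 FPKM) and DDX58 (12.3 to 21.1 FPKM) were under the limit. MHC class I and antigen processing genes had 0 higher and 2 lower of 20, HLA-E (117 to 56.5 FPKM) and PSMB9† (32.7 to 13.4 FPKM), and 0 and 1 with the trend removed.

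Across all promoters, the same element and 2 others were counted. Genes with the GAAA pair in the window were higher in 12.6% of cases and lower in 5.75%. For TGACTCA, the site of AP-1, the shares were 12.6% and 6.69%, and for GGCGCC, a SMAD site of BMP targets, 10.7% and 5.52%. Genes without the respective element were higher in 11.1%, 11.1% and 11.3%. The presence of a match is a description of the sequence.

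Genes of DNA replication were lower as a group by a small amount. The median of 61 genes was -0.61 (-0.48 with the trend removed, -0.53 in LM2), with 8 lower and 2 higher (7 and 1 with the trend removed). Thymidylate synthase (TYMS†) was at 185 FPKM in the control and 71.9 FPKM in the knockdown library (-1.35), and thymidine kinase (TK1) went from 136 to 53.5 FPKM (-1.33). The origin-licensing genes CDT1 (36.1 to 13.4 FPKM) and ORC1 (15.7 to 6.82 FPKM) and the helicase subunit gene GINS4† (48.7 to 11.6 FPKM) were lower as well, and MCM2† (51.9 to 30.7 FPKM, -0.74) and PCNA (179 to 119 FPKM, -0.59) differed by less than 2-fold. Of the kinases that drive entry into S phase, CDK2† (41.9 to 18.7 FPKM, -0.93 with the trend removed) and CDK4† (80.4 to 38.9 FPKM, -0.78) were lower in the values as deposited but not with the trend removed, whereas CDK6† went from 3.92 to 22.2 FPKM (2.24). RB1†, which encodes the brake on this step, was higher (7.85 to 20.9 FPKM, 1.31, 0.63 with the trend removed).

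Calls among mitosis genes moved with composition and length. Of 72 genes 14 were higher and 5 lower, but 1 was higher and 3 lower once the GC and length trend was removed. The kinesin gene KIF18A† went from 4.55 to 19.2 FPKM (1.86, 1.23 with the trend removed), the kinetochore gene CENPE from 3.56 to 15.4 FPKM (1.85 and 0.86) and CENPF† from 8.66 to 23.8 FPKM (1.36 and 0.78). Lower were CENPM (27 to 6.25 FPKM, -1.95), SPC25† (20.8 to 6.02 FPKM, -1.64), the regulator MYBL2 (50.7 to 15.3 FPKM, -1.67), AURKB (99.8 to 45.5 FPKM) and CDC20 (243 to 117 FPKM). The same held for homologous recombination, where 6 of 36 were higher and 1 lower with a median of 0.32, and 1 higher and 1 lower with a median of -0.13 after trend removal. BRCA2 went from 0.752 to 3.55 FPKM (1.38 and 0.37) and ATM† from 3.71 to 16 FPKM (1.85 and 1.06).

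Among genes of cell cycle arrest and cell death, CDKN1A, which encodes an inhibitor of cyclin-dependent kinases, was at 15.8 FPKM in the control and 39.7 FPKM in the knockdown library (1.28), and the ubiquitin ligase gene MDM2† went from 3.29 to 14.3 FPKM (1.83). BAX was at 95.8 and 55.2 FPKM (-0.79). Of BCL2 family genes, the pro-apoptotic BMF† was higher (0.532 to 4.77 FPKM), and BCL2L1† (232 to 158 FPKM) and MCL1† (55.7 to 55.6 FPKM) were under the limit. Among 4 CDK inhibitors, CDKN1B† was higher (12.5 to 34.9 FPKM, 1.41) and CDKN2D lower (47.5 to 22 FPKM, -1.08). With the trend removed 1 of these was higher and 0 lower, so CDKN2D no longer passed. Of all 30 arrest and death genes measured, 8 were higher and 2 lower (5 and 1 with the trend removed). In LM2 0 of them were higher and 0 lower.

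The gene with the largest increase was another hnRNP gene, but its reading is tied to a gene model that joins it to its neighbour. HNRNPH2† (chromosome X, 100663283 to 100669121, plus strand) was at 0.505 FPKM in the control and 49.9 FPKM in the knockdown library (5.08). The readthrough model RPL36A-HNRNPH2†, which spans it on the same strand, went from 17.2 to 4.11 FPKM (-1.84). In LM2, HNRNPH2 was at 49.1 FPKM in the control and 7.35 FPKM in the knockdown, the reverse order. How fragments were divided between these models was not tested. Of the 26 other hnRNP family genes measured, 2 were higher, HNRNPH2 and HNRNPH1 (91.8 to 193 FPKM, 1.06, 0.28 with the trend removed), and 0 lower, with a median of -0.23. The closest relative of HNRNPM, MYEF2†, was at 5.27 and 10.1 FPKM.

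Other splicing regulators had 8 higher and 1 lower of 39. MBNL1† (14.4 to 68 FPKM) and MBNL2 (3.95 to 24 FPKM), muscleblind-like proteins that favour mature-tissue exons, were higher, as were RBM47 (0.614 to 3.06 FPKM) and TIA1† (5.73 to 17.9 FPKM). KHDRBS3 was lower (27.6 to 7.55 FPKM, -1.74). With the trend removed 3 were higher and 2 lower, and the list's median went from 0.18 to -0.13. The core spliceosome differed little, with 1 higher (SF3B1, 25.5 to 66.7 FPKM) and 1 lower (LSM4, 225 to 110.3 FPKM) of 42. Of RNA decay factors, 6 of 35 were higher and 1 lower, with UPF2 (2.54 to 11 FPKM) and SMG1 (7.5 to 24.3 FPKM) higher and SMG6† (18.9 to 8.21 FPKM) lower, and with the trend removed 3 were higher and 0 lower. The nuclear long non-coding RNAs MALAT1 (2.22 to 20.1 FPKM, 2.72) and NEAT1 (4.23 to 28.8 FPKM, 2.51) were higher, as were 3 others of 10 long non-coding RNAs listed, TUG1† (13 to 38.3 FPKM), MIR22HG† (5.58 to 27.6 FPKM) and LINC-PINT† (0.904 to 4.5 FPKM). Of 18 small RNA host genes, 1 was lower, SNHG25† (10.8 to 3.36 FPKM).

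Subunit genes of large complexes for protein synthesis, protein breakdown and respiration changed little. Of 84 cytosolic ribosomal protein genes 1 was higher and 2 lower (median -0.22), of 77 mitochondrial ones 2 and 0 (median -0.05), and of 46 proteasome subunit genes 1 and 1 (median -0.30). With the trend removed these counts were 0 and 2, 0 and 2, and 0 and 3. Their shares of 3.57%, 2.60% and 4.35% called either way were below the 16.6% of all genes. Of 77 nuclear genes of the respiratory chain 1 was higher and 2 lower. SDHC†, a membrane subunit of succinate dehydrogenase, was the largest of these, at 42.6 FPKM in the control and 10.1 FPKM in the knockdown library (-1.98). Protein-coding genes of the mitochondrial genome had a median of 0.44, with MT-CYB past the limit (958 and 1986 FPKM). Its transfer RNAs, which are short, gave all 7 lower calls among 24 mitochondrial RNA genes, led by MT-TD (167 to 12.1 FPKM, -3.68). Translation initiation factors had 6 higher and 0 lower of 43, and 0 and 0 with the trend removed. Aminoacyl-tRNA synthetases had 0 and 1 of 37, and histone cluster genes 0 and 1 of 30.

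Metabolic genes changed gene by gene. In lipid synthesis, the desaturase genes FADS1† (109 to 36.3 FPKM), FADS2† (117 to 41 FPKM) and SCD (216 to 99.7 FPKM) were lower and the elongase genes ELOVL7 (0.766 to 5.25 FPKM) and ELOVL6 (8.02 to 17.1 FPKM) higher, 5 lower and 4 higher of 20. With the trend removed 4 were lower and 1 higher, and ELOVL6 no longer passed (0.56). In cholesterol metabolism, squalene synthase (FDFT1, 41.5 to 11.9 FPKM) and the SREBP retention factor INSIG1 (29.97 to 10.1 FPKM) were lower, HMGCS1† (14.7 to 36.6 FPKM) and the exporter gene ABCA1 (1.02 to 6.87 FPKM) higher, 4 lower and 3 higher of 32 (2 and 1 with the trend removed). Glycolysis and hypoxia genes had 4 higher and 2 lower of 40 (3 and 1 with the trend removed). PFKP† (242 to 91.7 FPKM) and ENO2† (33.6 to 13.9 FPKM) were the lower ones, and HIF1A† went from 54.7 to 126 FPKM (1.20, 0.49 with the trend removed). FBP1, a gluconeogenic enzyme that opposes PFKP, was also lower (42 to 4.4 FPKM, -2.99). The serine synthesis enzyme PHGDH was lower (27.2 to 6.6 FPKM, -1.89), while the amino acid transporters SLC7A5† (131 to 322 FPKM) and SLC7A11† (4.45 to 31.5 FPKM) were higher. The chaperone lists were near the background, with 4 higher and 2 lower of 38 unfolded protein and ATF4 genes (2 and 1 with the trend removed) and 2 and 1 of 18 heat shock genes, among them BAG3 (78.8 to 31.2 FPKM) as the lower one.

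Redox and xenobiotic genes included some of the largest increases. CYP1B1†, a cytochrome P450 that the aryl hydrocarbon receptor induces, was at 1.13 FPKM in the control and 50.01 FPKM in the knockdown library (4.58), and its antisense partner CYP1B1-AS1† went from 0.379 to 13.5 FPKM. Reads from these overlapping genes may be shared. CYP1A1 (2.89 to 10.9 FPKM) and the receptor gene AHR† itself (11.8 to 33.4 FPKM, 1.43, 0.74 with the trend removed) were higher as well. In tryptophan breakdown, KYNU (0.769 to 7.32 FPKM) and KMO† (1.28 to 7.06 FPKM) were higher and AFMID lower (21.9 to 10.2 FPKM). That list had 5 higher and 1 lower of 11, with a median of 0.59 that became -0.09 without overlapping genes. In the NRF2 list 5 of 26 were higher and 1 lower, led by thioredoxin reductase (TXNRD1†, 111 to 534 FPKM, 2.25), with PGD (160.4 to 71.9 FPKM) as the lower one, and its median of 0.36 became -0.10 without overlapping genes. Of 5 metallothionein genes 3 were lower, MT2A (452 to 164 FPKM), MT1X† (35.7 to 13.7 FPKM) and MT1A† (6.1 to 1.88 FPKM), with a median of -1.30 in BM1 (-1.02 with the trend removed) and -1.52 in LM2. These genes are near-identical neighbours, so the split of reads among them is uncertain.

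The proton pump of acidic organelles showed opposite differences in isoforms of 1 subunit. ATP6V1C2† was at 48.7 FPKM in the control and 1.24 FPKM in the knockdown library (-4.47), while the widely expressed isoform ATP6V1C1 went from 19.1 to 92.8 FPKM (2.22). In LM2, ATP6V1C2 was at 21.5 and 26.1 FPKM and ATP6V1C1 at 24.9 and 62 FPKM. ATP6V1C2 is not in the lysosome and pump list. Of its 59 measured members 5 were higher and 0 lower, those besides ATP6V1C1 being ATP6V0C† (34.5 to 108 FPKM), ATP6V1G1 (42.4 to 95.4 FPKM), SMPD1 (4.68 to 10.6 FPKM) and CTSO (0.738 to 2.49 FPKM).

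Matrix genes were called more often than the background in both directions, 7 higher and 6 lower of 32 collagens and modifying enzymes. PLOD2, which hydroxylates lysines that cross-link collagen, was at 21 FPKM in the control and 178 FPKM in the knockdown library (3.02). COL1A1 (1.94 to 11.1 FPKM), COL4A5 (2.33 to 7.68 FPKM) and COL12A1 (10.3 to 26.5 FPKM) were higher, and COL6A2 (27.2 to 6.5 FPKM), COL6A3 (2.28 to 0.441 FPKM) and COL13A1 (72.6 to 26.9 FPKM) were lower. LAMB3†, a laminin chain of epithelial basement membrane, was lower (192 to 82.5 FPKM, -1.21). Integrin subunits ITGAV† (3.85 to 20.04 FPKM) and ITGB1† (138 to 365 FPKM) were higher, but 11 of 14 integrins had a negative difference (median -0.35). With the trend removed 1 integrin was higher and 1 lower. Integrins and laminins together had 3 higher and 2 lower of 23, with a median of -0.29. Targets of SRF and YAP had 5 higher and 2 lower of 28 (5 and 1 with the trend removed). ANKRD1 (165 to 761 FPKM) and F3 (74.4 to 388 FPKM) were higher, CYR61 was at 487 and 592 FPKM, and CTGF† was lower (231 to 114 FPKM). Hyaluronan synthase 2 (HAS2†) went from 6.44 to 1.16 FPKM (-1.79), with 1 higher and 1 lower of 9 in that list. Of 36 growth factor genes, 5 were higher, with KITLG (0.563 to 8.21 FPKM) at the top, and 3 lower, with FGFR1† (55.5 to 14.3 FPKM) at the bottom. S100 genes had S100P higher (1.4 to 11.8 FPKM) and 0 lower of 10, and 0 of 10 MAGE genes passed the limit either way. With the trend removed the S100 median went from -0.53 to -0.23 and the MAGE median from -0.40 to -0.14. Solute carriers had 22 higher and 9 lower of 146 (15.1% and 6.16%), or 16 and 4 with the trend removed. Zinc finger genes had 37 and 8 of 358 (10.3% and 2.23%), or 10 and 6 with the trend removed. The shares over all genes as deposited were 10.3% higher and 6.37% lower, so the higher share of zinc finger genes was at the background. Mitochondrial carriers had 4 higher and 2 lower of 38, but 0 and 1 with the trend removed.

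Genes near silence in the control and present in the knockdown numbered 19 (under 0.5 and at least 5 FPKM), 12 of them protein-coding, and the reverse numbered 7. Such a rule picks genes by their difference, so the values are a description. DIO2, which activates thyroid hormone, went from 0.0603 to 18.7 FPKM and, in LM2, from 0.152 to 10.6 FPKM. CALCR, the calcitonin receptor gene, went from 0.0433 to 7.51 FPKM and, in LM2, from 0.241 to 12.7 FPKM. Its co-receptor gene RAMP1 went the other way (11 to 2.39 FPKM, -1.82). TRIM29 (0.22 to 11.2 FPKM), SYT12 (0.196 to 10.3 FPKM), CXADR (0.286 to 6.02 FPKM) and C9orf84 (0.0437 to 7.28 FPKM) behaved alike in BM1, the last 2 named after their values were seen. In the other direction, NOX5, an NADPH oxidase gene, went from 6.94 to 0.257 FPKM (-2.66), and the readthrough model TMEM256-PLSCR3† (gene ID ENSG00000262481.5) from 8.16 to 0.413 FPKM (-2.70), while a second row with that symbol is another gene model. Of the 19 genes 6 overlap another on the same strand, and of the 7 genes 4 do.

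Other large differences are given here by size. Higher in the knockdown were OLR1, a scavenger receptor (0.519 to 18.6 FPKM, 3.69), ZBTB38, a factor that binds methylated DNA (3.85 to 39.5 FPKM, 3.06), and SLC5A3† (gene ID ENSG00000198743.5), a myo-inositol transporter (2.09 to 24.1 FPKM, 3.03). The long non-coding CTD-2033D15.3†, which lies opposite THBS1†, went from 6.89 to 63.9 FPKM, and THBS1, which encodes thrombospondin 1, from 39.6 to 324 FPKM (3.0). RP11-4K16.2†, opposite MAL2†, went from 0.892 to 14.7 FPKM. Lower were HMGA1, a chromatin protein of dividing cells, at 616 FPKM in the control and 68.9 FPKM in the knockdown library (-3.14), and IMPA2, an inositol phosphatase (29.96 to 1.35 FPKM, -3.72). The transporter gene SLCO4A1† (49.6 to 3.28 FPKM, -3.56), the protease inhibitor gene CST1 (107 to 8.17 FPKM, -3.56), the endoplasmic reticulum lectin gene MLEC† (95.8 to 7.76 FPKM, -3.47) and PTX3†, a pattern recognition gene (98.2 to 9.47 FPKM, -3.24), followed. CD82, a tetraspanin known as a metastasis suppressor (47 to 6.87 FPKM, -2.61), the scaffold gene SLC9A3R1† (60.4 to 8.43 FPKM, -2.70) and SAMD11† (8.35 to 0.52 FPKM, -2.62) completed the 15 largest protein-coding decreases. Among non-coding genes the largest decreases were in RP11-950C14.3† (13.6 to 0.132 FPKM), MT-TD and AC009120.6† (64.2 to 4.57 FPKM). Of 259 named antisense genes 19 were higher and 20 lower, with SLCO4A1-AS1† (43.4 to 8.36 FPKM) lower together with the gene opposite to it.

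**Figure D5:**
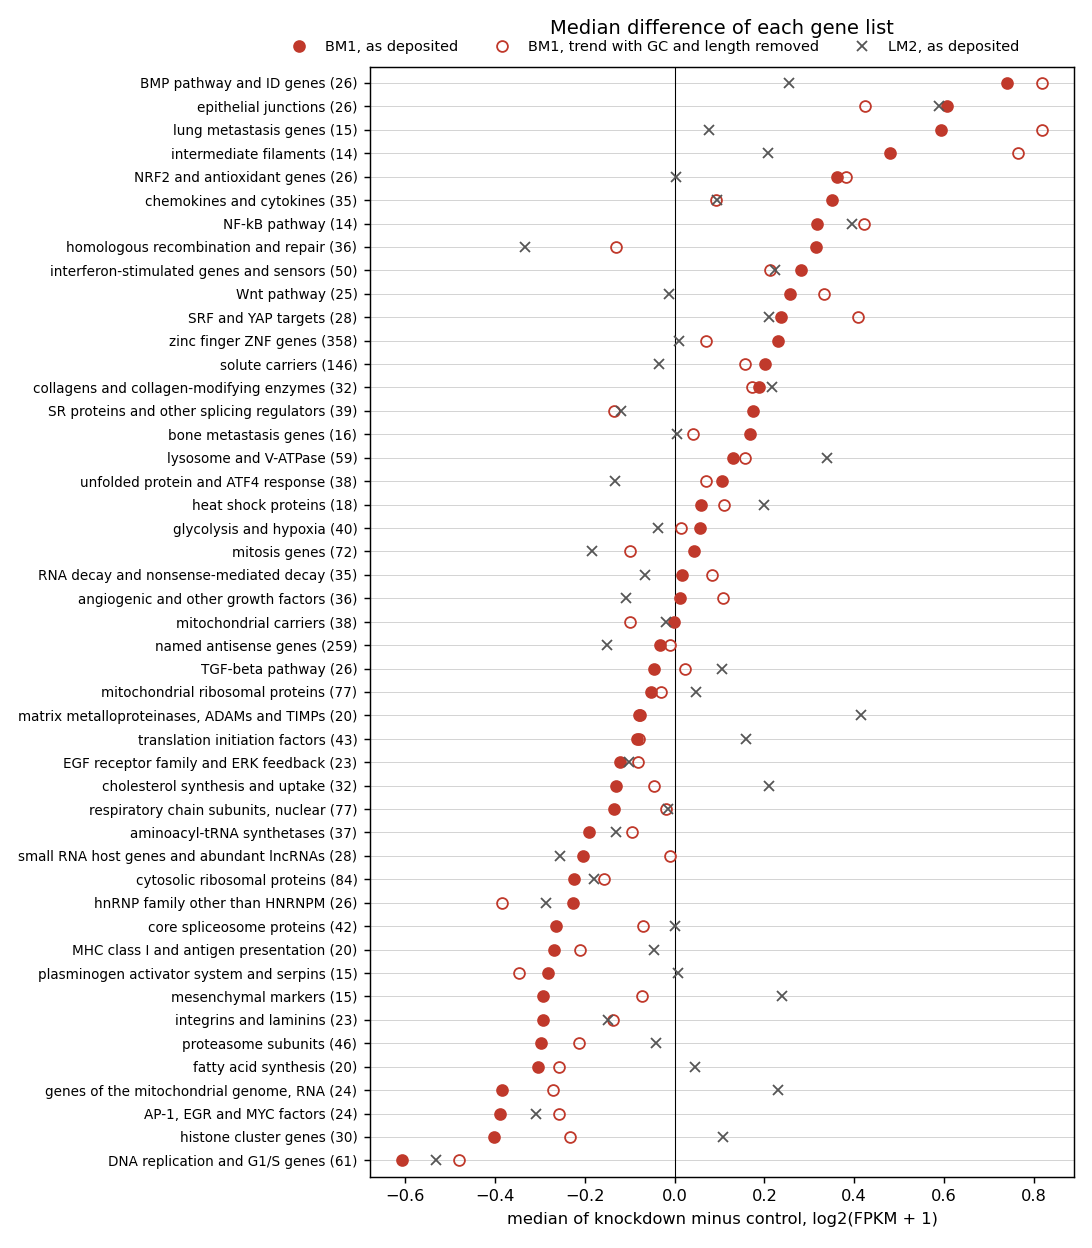
Median difference between knockdown and control, log2(FPKM + 1), of gene lists with at least 14 tested members (number in brackets), for BM1 as deposited (filled), BM1 with the GC and length trend removed (open) and LM2 as deposited (crosses). The list of cell cycle arrest and cell death genes is left out. BMP and ID genes lie at 0.74 in BM1 and 0.25 in LM2, and DNA replication genes at -0.61 and -0.53.

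Set beside LM2, which shares no library with BM1, the BM1 differences were larger in number and similar in sign. Of the same 13852 genes, 506 (3.65%) were at least 2-fold higher and 564 (4.07%) at least 2-fold lower in the LM2 knockdown, 7.72% either way. Of the 1420 genes higher in BM1, 263 (18.5%) were also at least 2-fold higher in LM2, 84.6% had the same sign and 6 were at least 2-fold lower. Of the 882 genes lower in BM1, 272 (30.8%) were at least 2-fold lower in LM2, 90.7% had the same sign and 11 were at least 2-fold higher. The decreases of HNRNPM† (-2.55 in BM1 and -2.64 in LM2), TGFBR2 (-2.87 and -3.01) and HMGA1 (-3.14 and -2.53) were close in size. ID1 (3.97 and 0.87), VIM† (-1.02 and 0.19) and CST1 (-3.56 and -0.59) were further apart. CST1 was at 0.718 and 0.145 FPKM in LM2, a level at which this scale allows no large decrease. Whether the lines differ was not tested, since 1 library per line and treatment leaves no error term for it.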

How the data were processed

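Each of the 4 libraries was a stranded paired-end library of polyadenylated RNA, per the labels' protocols. The authors deposited 1 table of FPKM per gene and library. The submitters' processing notes name STAR 2.5.3a, Cuffdiff 2.2.1 and GRCh37, with no role or order, and the sources used here state neither the annotation release nor the use of strand. Of 20369 rows, 40 that repeat 3 gene IDs were dropped. Symbols, positions and levels come from that table, and type, length and GC content from GENCODE 29 by gene ID (19671 matched), with no coordinates converted. The difference is knockdown minus control in log2(FPKM + 1) over genes with a mean of at least 1 FPKM, and the GC and length trend is a polynomial of degree 3. Promoters are RefSeq's 27305 windows of 250 bases before to 50 after the start. LM2 values are for the same genes.

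The FPKM values allow no count model here, and with 1 library per arm there is no test. All members and the 63 gene lists were chosen with earlier results of these data known. Genes named are HNRNPM, ID3, MMP1 and VIM, the 15 largest protein-coding and 3 largest non-coding differences in each direction, the 5 members of a list with the largest differences and others whose role the text needs, and genes at the edge of the filter. Some items are not reported here. The statistics were tested on simulated data. Alternatives were 2 lower pseudocounts (0.1 and 0.5), 3 other filters (none, 5 FPKM, and over all 4 libraries), 2 other folds (1.5 and 4), 2 rescalings (size factors, and equal sums without the mitochondrial genome), trend removal, protein-coding genes alone and genes without overlap. Inferred depth was 31300000 and 22800000 fragments for the BM1 control and knockdown, at a spacing above the finest one found. Intervals for counting error are not given because depth was inferred. Python 3.11.15, numpy 2.4.6, pandas 2.3.3, scipy 1.17.1 and matplotlib 3.10.9 were used.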

Additional observations from a re-analysis of the deposited data

Results flagged for a closer look

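Of 2345 measured genes that were listed or among the largest differences, 5 were at least 2-fold higher in the knockdown of one line and at least 2-fold lower in that of the other. Over all 13852 genes, this held for 6 of the 1420 higher in BM1 and 11 of the 882 lower in BM1. The difference between the lines was not tested. HNRNPH2† differed by 5.08 in BM1 and -2.59 in LM2 (49.1 to 7.35 FPKM), and it overlaps a readthrough model on its strand. KYNU, a kynurenine pathway enzyme, differed by 2.23 in BM1 and -1.61 in LM2 (4.98 to 0.961 FPKM). SDHC† differed by -1.98 in BM1 and 1.99 in LM2, where it went from 13.6 to 57 FPKM. The non-coding RP11-950C14.3† differed by -3.69 in BM1 and 2.94 in LM2 (0.139 to 7.71 FPKM). The readthrough model TMEM256-PLSCR3† differed by -2.70 in BM1 and 1.92 in LM2 (0.0197 to 2.86 FPKM).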

How the results depend on the processing

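No paired analysis was possible because each arm has 1 library, and for the same reason no library could be left out. Of 2302 genes past 2-fold (1420 higher and 882 lower), 1121 (721 and 400) passed among genes without overlap, 5306 (2927 and 2379) at 1.5-fold and 233 (141 and 92) at 4-fold. With the GC and length trend removed 817 were higher, and HNRNPM differed by -2.28. Scaling to equal sums without the mitochondrial genome moved the median of all genes by 0.10 and gave 1724 higher and 709 lower, so that 70.9% of calls were higher against 61.7%. Trend removal gave 52.2%. Neither that scaling nor size factors reversed any of the 63 list medians. Medians reversed without overlapping genes for the plasminogen system (0.035), intermediate filaments (-0.45), mesenchymal markers (0.34), MHC class I (0.16), NRF2 (-0.10) and aryl hydrocarbon receptor genes (-0.092). They reversed with the trend removed for homologous recombination (-0.13), at a mean of at least 5 FPKM for calcitonin and thyroid genes (1.19), and with no filter for endothelial (0.039) and osteoclast markers (-0.13). The genes without overlap and those at 5 FPKM are smaller sets by construction, and the cause of the other changes was not tested. A list median counted as reversed when it was at least 0.25 in size and changed sign. A further 15 of 63 moved by over 0.2 without overlapping genes, 11 with the trend removed, and 9 of 61 at 5 FPKM. Depth limits low genes, and FPKM hides it.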
